A study of Mus musculus with 2 samples.

Results

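Expression of 10 genes of the unfolded protein response and the integrated stress response was examined in retinal cells of db/db and wild-type mice. The genes were taken by symbol from the 32285 genes of the deposited matrices. They were the endoplasmic reticulum (ER) chaperones and co-chaperone Hspa5, Hsp90b1 and Dnajb9, the XBP1 and degradation genes Xbp1 and Herpud1, and the ATF4 arm, Atf4, Ddit3, Asns, Sesn2 and Trib3. The study compared the retina of diabetic and control mice at 13 weeks of age by droplet single-cell RNA sequencing with 10x Genomics 3' v3.1 chemistry. The control group was C57BLKS with wild-type leptin receptor gene (Leprwt/wt, also given as m/m), and the diabetic group was C57BLKS homozygous for the db allele (Leprdb/db). Neither group received a treatment. Each group was 1 library made from both retinas of 2 mice, and cells were not traced to mice. The db allele alters splicing of Lepr, which 3' tags do not check. It is carried in all tissues, so effects within the retina and effects of obesity and diabetes cannot be told apart. With 1 library per genotype no difference between genotypes has a replicate check, and no p-value is given. All intervals are 95% intervals of counting error and do not cover variation among mice or preparations.

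When unfolded proteins build up in the ER, 3 membrane sensors respond. IRE1 splices Xbp1 mRNA into the form that encodes an active transcription factor, ATF6 is cleaved into a transcription factor, and PERK phosphorylates the translation factor eIF2alpha. XBP1 and ATF6 raise ER chaperones and the machinery that degrades misfolded ER proteins. Phosphorylated eIF2alpha slows protein synthesis in general but favours translation of ATF4, which acts on genes of amino acid supply and, under lasting stress, on the pro-apoptotic factor CHOP, encoded by Ddit3. Several other kinases phosphorylate the same factor, and the shared part of the pathway is called the integrated stress response. Photoreceptors renew their outer segments continuously, which places a high load of membrane proteins on the ER. A 3' tag count does not separate spliced from unspliced Xbp1 mRNA and does not measure ATF4 protein, which is controlled mainly at translation.

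The promoters were searched for elements described for these pathways. ER stress elements were matched in Hspa5, Hsp90b1 and Herpud1, and in no member of the ATF4 arm. The C/EBP-ATF core, an element of ATF4, was matched in Asns, Trib3 and Herpud1, and in no chaperone. Herpud1 thus held both kinds, and the other members held neither. All 10 genes had an entry in the RefSeq promoter table of GRCm38.p6, from 250 bases before to 50 bases after the start site. Trib3, which holds the C/EBP-ATF core, is not printed. The 4 printed here hold an ER stress element, that core or both: Hspa5 (chr2:34771840-34772139, plus strand), Hsp90b1 (chr10:86705395-86705694, minus strand), Herpud1 (chr8:94386179-94386478, plus strand) and Asns (chr6:7693160-7693459, minus strand). Each is written 5′ to 3′ on the strand of the gene, and capitals mark the fixed letters of a match.
Hspa5: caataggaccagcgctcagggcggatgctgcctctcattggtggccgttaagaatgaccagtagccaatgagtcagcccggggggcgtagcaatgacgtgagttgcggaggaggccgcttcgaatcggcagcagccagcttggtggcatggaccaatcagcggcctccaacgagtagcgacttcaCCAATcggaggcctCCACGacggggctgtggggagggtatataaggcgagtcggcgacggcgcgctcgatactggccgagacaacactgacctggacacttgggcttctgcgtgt
Hsp90b1: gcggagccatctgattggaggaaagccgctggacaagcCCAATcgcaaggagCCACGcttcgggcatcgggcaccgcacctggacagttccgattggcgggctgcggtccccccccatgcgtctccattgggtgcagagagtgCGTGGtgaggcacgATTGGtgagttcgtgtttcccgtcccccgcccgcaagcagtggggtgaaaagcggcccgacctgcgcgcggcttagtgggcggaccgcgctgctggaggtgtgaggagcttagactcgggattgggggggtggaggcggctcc
Herpud1: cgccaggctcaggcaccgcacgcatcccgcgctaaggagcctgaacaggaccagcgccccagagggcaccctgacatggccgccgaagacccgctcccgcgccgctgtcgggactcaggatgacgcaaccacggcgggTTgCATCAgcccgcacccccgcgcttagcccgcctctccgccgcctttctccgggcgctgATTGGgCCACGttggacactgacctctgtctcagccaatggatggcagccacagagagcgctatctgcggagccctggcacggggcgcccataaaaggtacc
Asns: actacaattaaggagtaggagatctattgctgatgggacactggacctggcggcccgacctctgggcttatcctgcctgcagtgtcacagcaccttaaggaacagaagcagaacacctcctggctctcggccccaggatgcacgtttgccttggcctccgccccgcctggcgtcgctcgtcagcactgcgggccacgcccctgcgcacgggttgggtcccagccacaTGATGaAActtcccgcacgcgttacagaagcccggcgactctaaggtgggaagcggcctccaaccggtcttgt
The ER stress element, bound by ATF6 together with NF-Y, was searched as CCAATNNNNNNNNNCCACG on both strands. It was found in 39 of 32851 promoters (0.119%), among them Hspa5, with the first base 65 bases before the start site, and Hsp90b1, with a match 212 bases before it and another on the opposite strand from 107 bases before it. The compact form, ATTGG, 1 base of any kind and CCACG, was in 12 promoters (0.0365%), among them Herpud1 at 52 bases before the start site. The core of the C/EBP-ATF response element, TGATGNAA, through which ATF4 acts with C/EBP partners, was in 1304 promoters (3.97%) and in 3 of the 10 members. It lay 23 bases before the start of Asns, 112 bases before that of Herpud1 on the opposite strand, and 14 bases after that of Trib3 on the opposite strand. The short core CCACG, which the longer ER stress elements contain, was in 32.8% of promoters and in 7 members. TGACGTGG, the core of the XBP1 element, and TGACGTCA, the cAMP response element, were in 0.676% and 1.79% of promoters and in 0 members. A match is a description of the letters, and the lack of one says only that the letters are not in this window.

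The wild-type matrix held 10308 barcodes with 35642274 UMIs (unique molecular identifiers, which count captured mRNA molecules), and the db/db matrix 11083 barcodes with 33742189 UMIs. After filtering, 10230 and 10963 cells remained, with medians of 2314 and 2051 UMIs per cell. Of the kept barcodes, 26 occurred in both libraries. Cells were clustered without the 10 genes and without the wider pathway genes, and clusters were named from markers. The classes compared were rod-like (7733 wild-type and 9191 db/db cells), cone-like (401 and 370), bipolar-like (709 and 504), Muller glia-like (365 and 208) and microglia or macrophage-like cells (67 and 61). Each carried its own markers, from 9750 to 55800 CPM (UMIs of a gene per 1000000 UMIs of the class and library) for its summed list in either library. Rod markers were also present outside rods. In bipolar-like cells they summed to 16900 and 15900 CPM, above the bipolar markers at 10500 and 9750 CPM. They were at 22500 and 19600 CPM in cone-like, 17700 and 19100 CPM in Muller glia-like and 15400 and 11900 CPM in microglia or macrophage-like cells. Free RNA shared by all droplets was estimated at no more than 17.4% and 22.6% of the UMIs of rod-like cells, from Muller glia and bipolar markers, and at no more than 23.2% to 50.9% in the other classes, from 9 rod markers.

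Across classes, Hspa5, Hsp90b1, Dnajb9, Xbp1, Herpud1 and Atf4 had their highest mean level of the 2 libraries in microglia or macrophage-like cells. Hspa5 (ENSMUSG00000026864; GRCm38 chr2:34771970-34777547, plus strand) encodes BiP, the main HSP70 chaperone of the ER. Its level was 1720 CPM in wild-type and 1480 CPM in db/db microglia or macrophage-like cells, against 481 and 476 CPM in Muller glia-like, 430 and 419 CPM in cone-like, 399 and 332 CPM in bipolar-like and 291 and 274 CPM in rod-like cells. The values of the 2 libraries did not overlap between any of these 5 classes, but some counting intervals did. That of db/db Muller glia-like cells (429 to 526 CPM) overlapped that of wild-type cone-like cells (402 to 460 CPM). That of db/db cone-like cells (390 to 450 CPM) overlapped that of wild-type bipolar-like cells (373 to 426 CPM). The share of all genes with such separated values is not given. Hsp90b1 (ENSMUSG00000020048; chr10:86690209-86705509, minus strand) encodes GRP94, the HSP90 chaperone of the ER, and shares its strand and part of its span with the gene model Gm15344. Its level was 794 and 701 CPM in microglia or macrophage-like, 690 and 542 CPM in cone-like, 578 and 498 CPM in bipolar-like, 568 and 406 CPM in rod-like and 498 and 390 CPM in Muller glia-like cells. From cones downward, neighbouring classes overlapped between libraries, so that this gene was the more evenly spread of the pair. Dnajb9 (ENSMUSG00000014905; chr12:44205559-44210326, minus strand) encodes ERdj4, a J-domain co-chaperone of BiP that holds IRE1 inactive. It was at 218 and 213 CPM in microglia or macrophage-like and 176 and 131 CPM in Muller glia-like cells, and between 39.7 and 69.6 CPM in the 3 neuronal classes.

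Xbp1 (ENSMUSG00000020484; chr11:5520659-5525893, plus strand) differed little between the neuronal classes and Muller glia. It was between 50.3 and 74.7 CPM in rod-like, cone-like, bipolar-like and Muller glia-like cells of both libraries, and at 118 and 101 CPM in microglia or macrophage-like cells. Herpud1 (ENSMUSG00000031770; chr8:94386438-94395377, plus strand) encodes a membrane protein of the ER degradation complex, and Gm15890 overlaps it on the opposite strand. Its level was 417 and 459 CPM in microglia or macrophage-like, 124 and 117 CPM in Muller glia-like and 102 and 81.2 CPM in bipolar-like cells. Rod-like cells were at 55.6 and 48.0 CPM and cone-like cells at 49.3 and 47.1 CPM, ranges that overlapped.

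The ATF4 arm did not share 1 order of classes. Atf4 (ENSMUSG00000042406; chr15:80255184-80257541, plus strand), the transcription factor of the arm, was high in microglia or macrophage-like cells (817 and 623 CPM), rod-like cells (565 and 635 CPM) and cone-like cells (552 and 573 CPM), whose ranges overlapped in that order. It was lower in Muller glia-like (349 and 336 CPM) and bipolar-like cells (257 and 232 CPM). Ddit3 (ENSMUSG00000025408; chr10:127290774-127296288, plus strand) was at 393 and 270 CPM in Muller glia-like cells and at 163 and 272 CPM in microglia or macrophage-like cells, so that Muller glia-like cells were highest in the wild-type library, and the db/db values of the pair were not separated. In cone-like, rod-like and bipolar-like cells it was between 100 and 162 CPM. A second gene model named Ddit3 had 0 UMIs in both libraries, and Mars and Gm4189 overlap Ddit3 on the opposite strand, so its counts are uncertain to the extent that strand was not used.

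The remaining 3 ATF4 targets had few UMIs. Asns (ENSMUSG00000029752; chr6:7675169-7693254, minus strand), asparagine synthetase, was highest in cone-like cells at 32.7 and 27.5 CPM, followed by bipolar-like cells at 17.7 and 13.0 CPM and rod-like cells at 8.11 and 5.15 CPM. Muller glia-like cells held 5 and 3 Asns UMIs, and microglia or macrophage-like cells 0 and 1. Trib3 (ENSMUSG00000032715; chr2:152337422-152344032, minus strand), a pseudokinase that restrains ATF4 and CHOP, was highest in rod-like cells, at 18.5 and 18.8 CPM with intervals of 16.8 to 20.4 and 17.2 to 20.6 CPM. In the other 4 classes it was between 3.73 and 7.29 CPM, from 1 to 15 UMIs per class and library. Rod-like cells held 78.1% of the wild-type and 84.8% of the db/db Trib3 UMIs of all kept cells. The part of free RNA in the Trib3 levels of the other classes was not tested. Sesn2 (ENSMUSG00000028893; chr4:132492032-132510501, minus strand), sestrin 2, a leucine-sensing inhibitor of mTORC1 whose span overlaps Gm12981 on the same strand, was between 8.79 and 20.1 CPM in all 5 classes. Its neighbouring classes were not separated beyond their counting intervals, except rod-like from cone-like cells in the wild-type library.

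**Figure D1:**
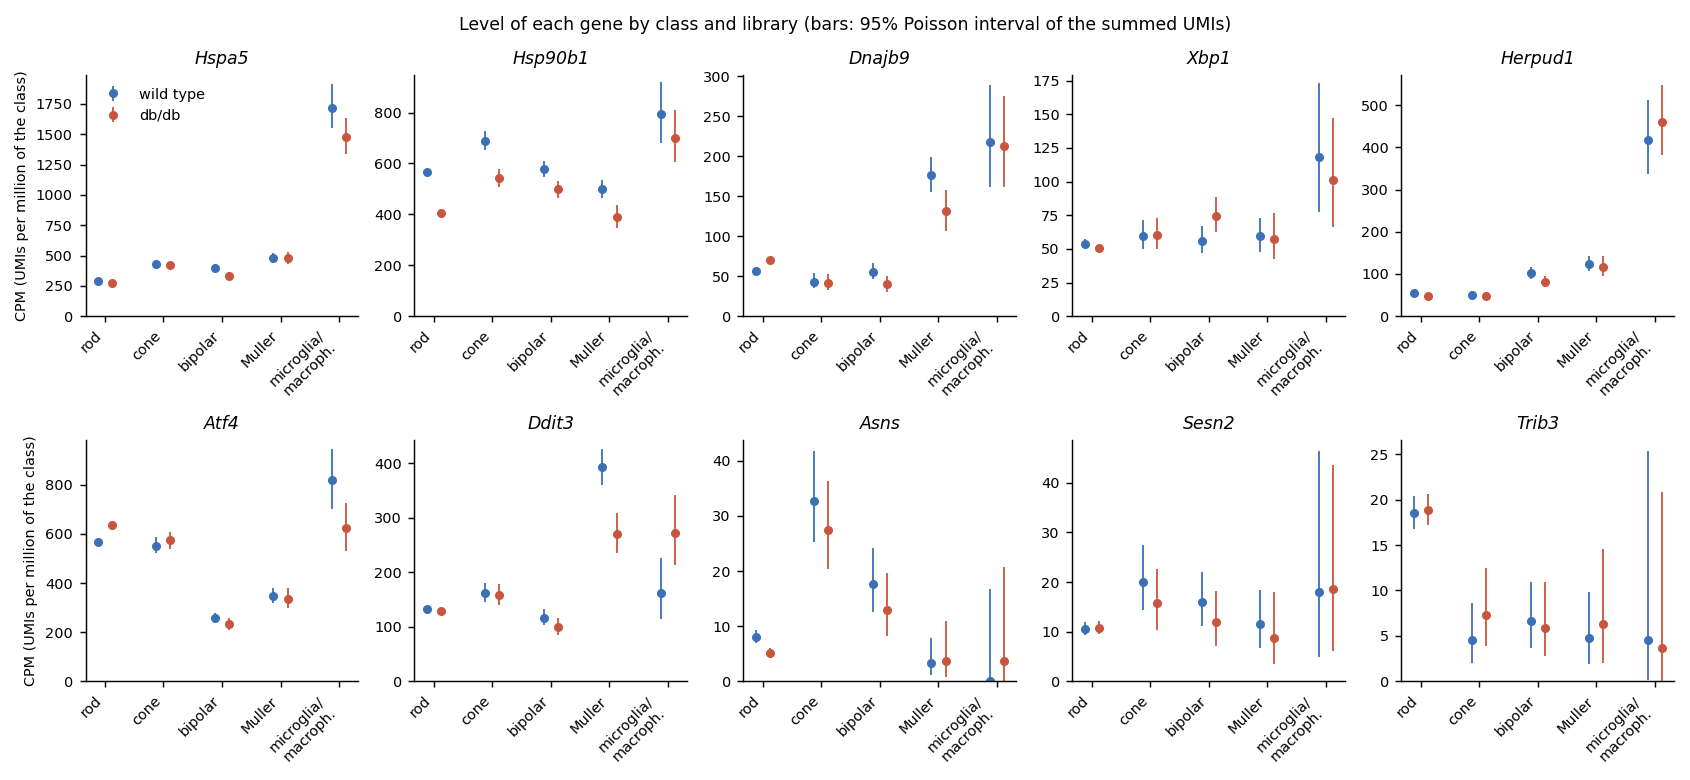
Level of each of the 10 genes (vertical axis, CPM, starting at 0, scaled per gene) in the 5 compared classes (horizontal axis), with wild-type library in blue, db/db library in red and bars for the 95% Poisson interval of the summed UMIs. Hspa5 and Herpud1 stand far higher in microglia or macrophage-like cells, Asns in cone-like cells and Trib3 in rod-like cells.

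Between the libraries, more of the measured members were below than above 0 in each compared class, with the most even split in rods. A gene was called measured in a class with at least 50 UMIs over both libraries, and a ratio was counted when it reached a line at 0.32 on the log2 scale in either direction. In rod-like cells all 10 genes were measured; 6 were lower and 4 higher in db/db (42.4% of all genes were lower), with a median log2 ratio of -0.06 against 0.03 for all 11779 measured genes. Past that line, 2 members were lower (Hsp90b1 and Asns), against 5.49% of all measured genes, and 0 were higher, against 7.79%. In cone-like cells 2 of 9 measured members (Hsp90b1 and Sesn2) were lower past that line (9.42% of all genes) and 0 higher (11.0%). Of the 9, 7 were below 0 (49.2% of all genes), with a median of -0.04 against 0.00 for all genes. In bipolar-like cells 4 of 9 (Dnajb9, Herpud1, Asns and Sesn2) were lower (11.7% of all genes) and 1, Xbp1, was higher (10.7%). Of the 9, 8 were below 0 (51.9% of all genes), with a median of -0.26 against -0.01. Hspa5, Hsp90b1 and Dnajb9 were lower there with intervals that left out 0, a measure for which no share of all genes is given. Without 1 bipolar cluster, led by Car8 and Sebox, only Hsp90b1 of these kept such an interval. The 4 measured ATF4-arm members were below 0 with intervals that included 0. In Muller glia-like cells 3 of 7 (Hsp90b1, Dnajb9 and Ddit3) were lower (15.7% of all genes) and 0 higher (14.7%). All 7 were below 0 (48.9% of all genes), with a median of -0.09 against 0.01. In microglia or macrophage-like cells 1 of 7, Atf4, was lower (27.4% of all genes) and 1, Ddit3, higher (19.7%). Of the 7, 5 were below 0 (54.5% of all genes), with a median of -0.18 against -0.05.

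**Figure D2:**
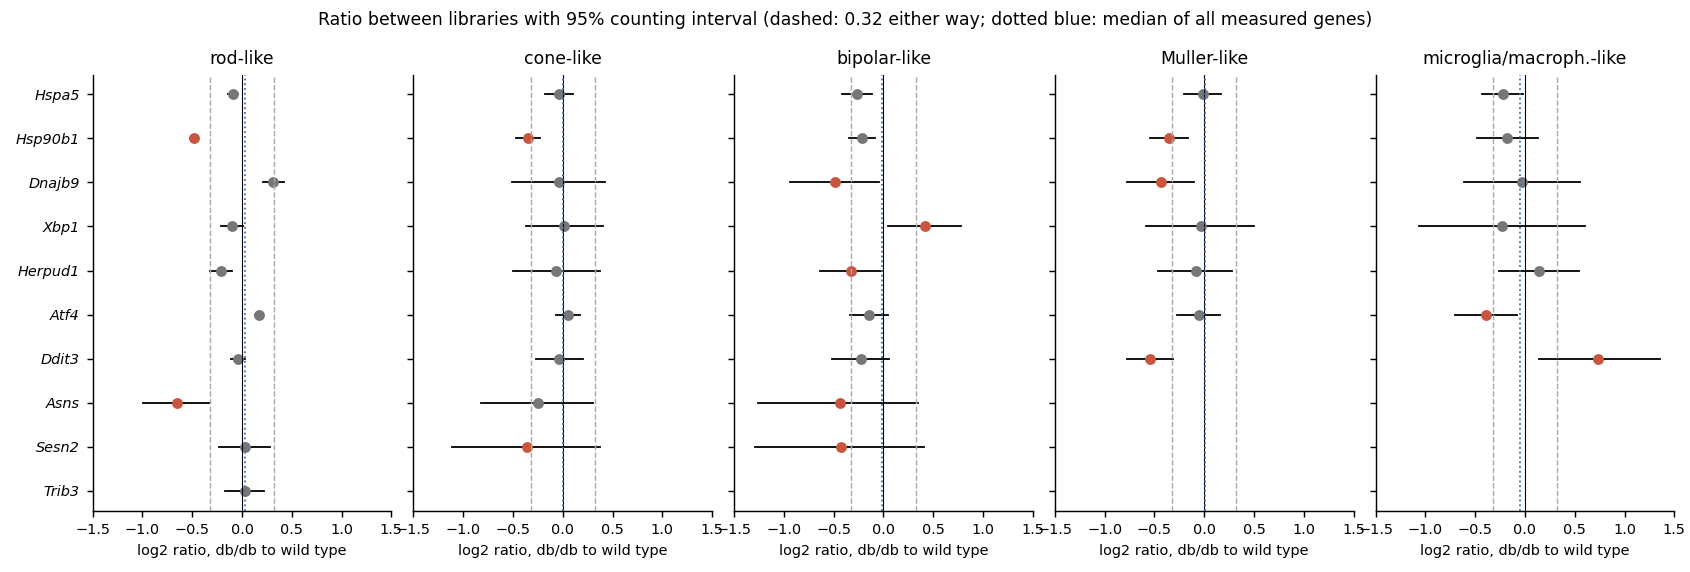
Log2 ratio of db/db to wild type (horizontal axis) for each measured gene (rows) in each class (panels), with bars for the 95% counting interval, dashed lines at 0.32 in either direction, a dotted line at the median of all measured genes, and red points for ratios past the dashed lines. Hsp90b1 lies left of 0 in all 5 panels, while Ddit3 lies left of 0 in Muller glia-like cells and right of 0 in microglia or macrophage-like cells.

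Among the chaperones, Hsp90b1 was lower in the db/db library in every compared class. In rod-like cells it went from 568 CPM (558 to 578) to 406 CPM (399 to 414), at a log2 ratio of -0.48 (-0.52 to -0.45). In cone-like cells the log2 ratio was -0.35 (-0.47 to -0.23), in Muller glia-like cells -0.35 (-0.55 to -0.16) and in bipolar-like cells -0.21 (-0.34 to -0.09). In microglia or macrophage-like cells it was -0.18, with an interval of -0.48 to 0.13 that included 0. The direction in Muller glia-like cells was not kept after thinning each cell to 1000 UMIs, where the log2 ratio was 0.05. In microglia or macrophage-like cells it was 0.15 with equal weight per cell and 0.40 in 1 of the 2 clusters of the class. With the free-RNA profile subtracted, scaled as above, the ratios of Hsp90b1 were -0.50 in rod-like, -0.34 in cone-like, -0.31 in Muller glia-like, -0.12 in bipolar-like and -0.18 in microglia or macrophage-like cells. In cone-like cells 10 of 10 rod markers were lower in db/db, at a summed 22500 and 19600 CPM.

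Within rod-like cells, the level of Hsp90b1 varied widely with the mitochondrial share of a cell, and the libraries differ in how many cells have a low share. All 8 rod clusters had a lower level in db/db; their levels ranged from 386 to 1070 CPM in the wild-type and from 285 to 825 CPM in the db/db library. Terciles of rod-like cells were formed by mitochondrial share, with limits at 1.63% and 4.15%. From the lowest to the highest tercile, Hsp90b1 was at 418, 526 and 747 CPM in the wild-type and 282, 371 and 597 CPM in the db/db library. The log2 ratios were -0.57, -0.50 and -0.32, so the difference was present in each tercile and smallest in the highest. The lowest tercile held 2218 wild-type and 3423 db/db cells. Over terciles of UMIs per cell the log2 ratio was -0.33, -0.26 and -0.58.

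**Figure D3:**
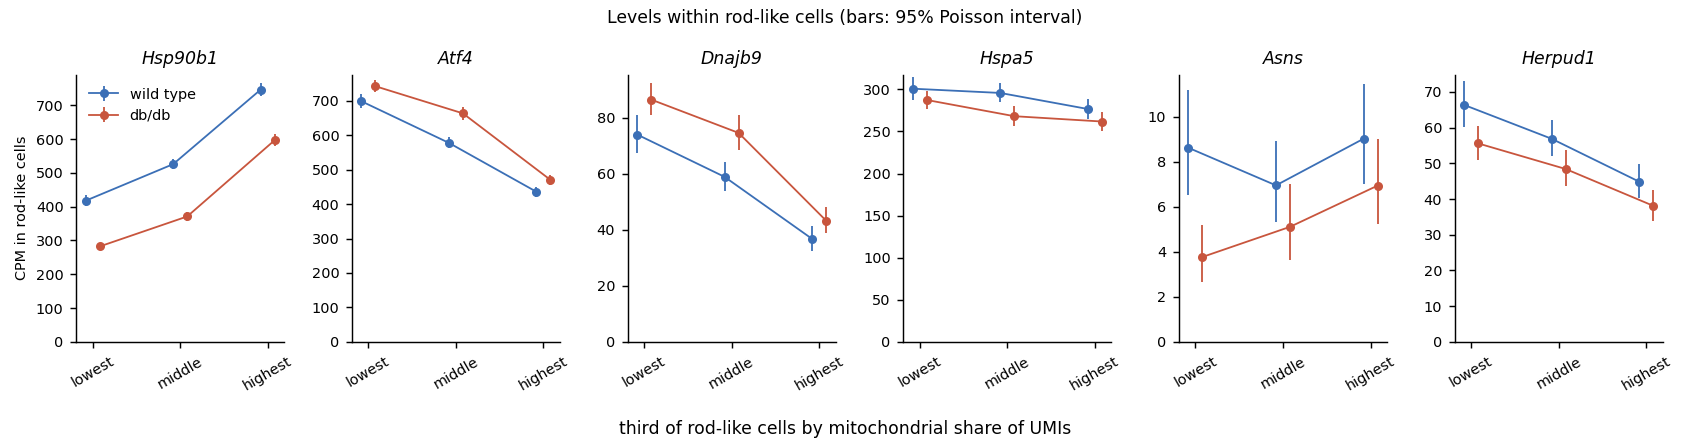
Level in rod-like cells (vertical axis, CPM, starting at 0) by tercile of mitochondrial share (horizontal axis) for 6 genes, wild-type library in blue and db/db library in red, bars for the 95% Poisson interval. Hsp90b1 is higher in each next tercile while Atf4, Dnajb9 and Herpud1 are lower, and Hsp90b1 is lower and Atf4 and Dnajb9 are higher in db/db in each tercile.

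Hspa5, which carries the same promoter element as Hsp90b1, differed less. Its log2 ratio was -0.09 (-0.14 to -0.04) in rod-like cells, -0.04 (-0.18 to 0.11) in cone-like cells and -0.01 (-0.20 to 0.17) in Muller glia-like cells. It was -0.26 (-0.42 to -0.11) in bipolar-like cells, where 7 of 10 clusters were lower in db/db, and -0.22 (-0.43 to -0.02) in microglia or macrophage-like cells, where it was 0.05 with equal weight per cell and 0.55 after thinning. Across the mitochondrial terciles of rod-like cells it stayed between 277 and 301 CPM in the wild-type and between 262 and 287 CPM in the db/db library. Hspa5 thus lacked the gradient seen for Hsp90b1 in the same cells.

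Dnajb9 had different signs in different classes. In rod-like cells it was higher in db/db, at 69.6 against 55.9 CPM, at a log2 ratio of 0.32 (0.21 to 0.42), just inside the line. It was higher in 7 of 8 rod clusters and in each mitochondrial tercile, with log2 ratios of 0.22, 0.34 and 0.24. In bipolar-like cells it was lower, at 39.7 against 55.7 CPM, with a log2 ratio of -0.49 (-0.94 to -0.05), and 5 of 10 clusters were lower and 5 higher. The cluster led by Car8 and Sebox held 50 and 12 of these UMIs, at 78.9 and 29.3 CPM. Without that cluster the ratio in bipolar-like cells was -0.12 (-0.64 to 0.40), from 76 and 55 UMIs. In Muller glia-like cells it was at 131 against 176 CPM, at a log2 ratio of -0.43 (-0.78 to -0.10). The ratio in cone-like cells was -0.04 and in microglia or macrophage-like cells -0.03, both with intervals that included 0. The difference between classes was not tested, since each has 1 library per genotype.

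In the XBP1 and degradation group, ratios were small in rods and larger in bipolar-like cells. Xbp1 was at 53.9 and 50.3 CPM in rod-like cells, at a log2 ratio of -0.10 (-0.21 to 0.01). In bipolar-like cells it was higher in db/db, at 74.7 against 56.1 CPM, at a log2 ratio of 0.41 (0.04 to 0.78), with 9 of 10 clusters higher. After thinning to 1000 UMIs per cell this ratio was -0.09. Herpud1 was lower in rod-like cells, with a log2 ratio of -0.21 (-0.33 to -0.10) and 7 of 8 clusters lower, and in bipolar-like cells, with -0.32 (-0.64 to -0.01). Without the cluster led by Car8 the latter was -0.21 (-0.60 to 0.18). In the other 3 classes the intervals of both genes included 0. In db/db bipolar-like cells the summed haemoglobin and erythroid markers were at 432 CPM, against 14.6 CPM in wild type, and 1 cell held 322 of the 350 Hbb-bs UMIs; the part of this in the bipolar ratios was not tested.

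In the ATF4 arm, Atf4 was higher in db/db rod-like cells, at 635 CPM (625 to 644) against 565 CPM (556 to 575). The log2 ratio was 0.17 (0.13 to 0.20), under the line, and 7 of 8 rod clusters were higher. It was 0.09, 0.20 and 0.11 over the mitochondrial terciles and 0.36, 0.06 and 0.17 over the terciles of UMIs per cell. Atf4 followed the mitochondrial share in the opposite sense to Hsp90b1, from 699 CPM in the lowest to 436 CPM in the highest wild-type tercile and from 742 to 470 CPM in db/db. In cone-like, bipolar-like and Muller glia-like cells the log2 ratios of Atf4 were 0.05, -0.14 and -0.05, with intervals that included 0. With the free-RNA profile subtracted at its upper limit, scaled as above, they were -0.06, -1.07 and -0.59. Over all alternatives Atf4 ranged from -0.06 to 0.24 in cone-like and from -1.75 to -0.12 in bipolar-like cells. In Muller glia-like cells the range was -0.70 to 0.13.

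Among the members that are ATF4 targets, Ddit3, Trib3 and Sesn2 had intervals that included 0 in rod-like cells, and Asns was lower in db/db. Genes of the wider ATF4 list, given below, differed in both directions there. Ddit3 was at 133 and 130 CPM there, at a log2 ratio of -0.04 (-0.11 to 0.03). Trib3 had 422 and 479 UMIs, with a log2 ratio of 0.03 (-0.17 to 0.22), and Sesn2 241 and 274 UMIs, with 0.03 (-0.23 to 0.28). Asns was lower in db/db, with 185 UMIs (8.11 CPM) in wild-type and 131 UMIs (5.15 CPM) in db/db rod-like cells, at a log2 ratio of -0.66 (-0.99 to -0.32). Asns was lower in 7 of 8 rod clusters, and most so in the lowest mitochondrial tercile, at 56 and 38 UMIs and a log2 ratio equal to -1.19 (-1.83 to -0.57). In the tercile of fewest UMIs per cell, with 13 and 19 UMIs, its ratio was 0.26 (-0.84 to 1.40). In cone-like and bipolar-like cells the Asns ratios were -0.25 (-0.82 to 0.31) and -0.44 (-1.26 to 0.35), a difference not detectable at this depth. The Sesn2 ratios of -0.36 in cone-like and -0.42 in bipolar-like cells rest on 40 and 28 and on 36 and 20 UMIs, and their intervals included 0. Rod-like cells of the 2 libraries also differed in summed cone markers (455 and 403 CPM, 8 of 9 measured markers lower), retinal pigment epithelium markers (9.12 and 5.11 CPM) and erythroid markers (18.3 and 50.9 CPM), whose part in these ratios was not tested.

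In the glia-like classes, Ddit3 differed in opposite directions. Muller glia-like cells had 577 Ddit3 UMIs (wild type) and 215 (db/db), or 393 and 270 CPM, at a log2 ratio of -0.54 (-0.77 to -0.31). Microglia or macrophage-like cells had 36 and 73 UMIs, or 163 and 272 CPM, at a log2 ratio of 0.74 (0.14 to 1.36). Atf4 was at 817 and 623 CPM in the microglia or macrophage-like cells, at a log2 ratio of -0.39 (-0.70 to -0.08), so the genes for ATF4 and CHOP differed in opposite directions there. The summed Muller glia markers in this class were at 1660 CPM in wild type and 13600 CPM in db/db, or 608 and 1980 CPM without Apoe, which microglia can also express. One db/db cell held 370 of the 532 marker UMIs other than Apoe. Without the cell of each library highest in these markers the ratio was 0.68 for Ddit3 and -0.30 for Atf4, the latter short of the line. In Muller glia-like cells the cone markers were at 628 and 280 CPM (7 of 7 measured lower) and the bipolar markers at 854 and 483 CPM (8 of 9 lower), and their part in the ratios was not tested.

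Each glia-like class held 1 cluster of many and 1 of few UMIs per cell, and Hspa5, Herpud1, Ddit3 and Dnajb9 were higher in the former in both libraries. The Muller cluster led by Ccn1 and Col9a1 (195 wild-type and 93 db/db cells, medians of 5651 and 6259 UMIs) had Ddit3 at 453 and 313 CPM and Dnajb9 at 200 and 153 CPM. The cluster led by Dapl1 and Crym (170 and 115 cells, medians of 856 and 944 UMIs) had Ddit3 at 76.2 and 112 CPM and Dnajb9 at 55.0 and 47.0 CPM. The lower Ddit3 level of db/db was therefore that of the Ccn1 cluster, with a log2 ratio of -0.54 (-0.78 to -0.30), while the Dapl1 cluster was at 0.55 (-0.46 to 1.57) from 18 and 19 UMIs. Among microglia or macrophage-like cells, the cluster led by the chemokine genes Ccl4 and Ccl3 (25 and 34 cells) had Hspa5 at 2260 and 1740 CPM and Herpud1 at 529 and 537 CPM. The cluster led by Lyz2 and Tyrobp (42 and 27 cells) had Hspa5 at 443 and 290 CPM and Herpud1 at 153 and 103 CPM. In the Ccl4 cluster the log2 ratio of Hspa5 was -0.38 (-0.59 to -0.17), that of Atf4 -0.49 (-0.81 to -0.16) and that of Ddit3 0.87 (0.21 to 1.57). In the Lyz2 cluster Ddit3 had 9 and 3 UMIs, at a log2 ratio of -1.15 (-3.67 to 0.85). Since the clusters took unequal shares of the class in the 2 libraries, class values in microglia or macrophage-like cells also carry that mix, and the class had medians of 1898 and 4331 UMIs per cell.

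**Figure D4:**
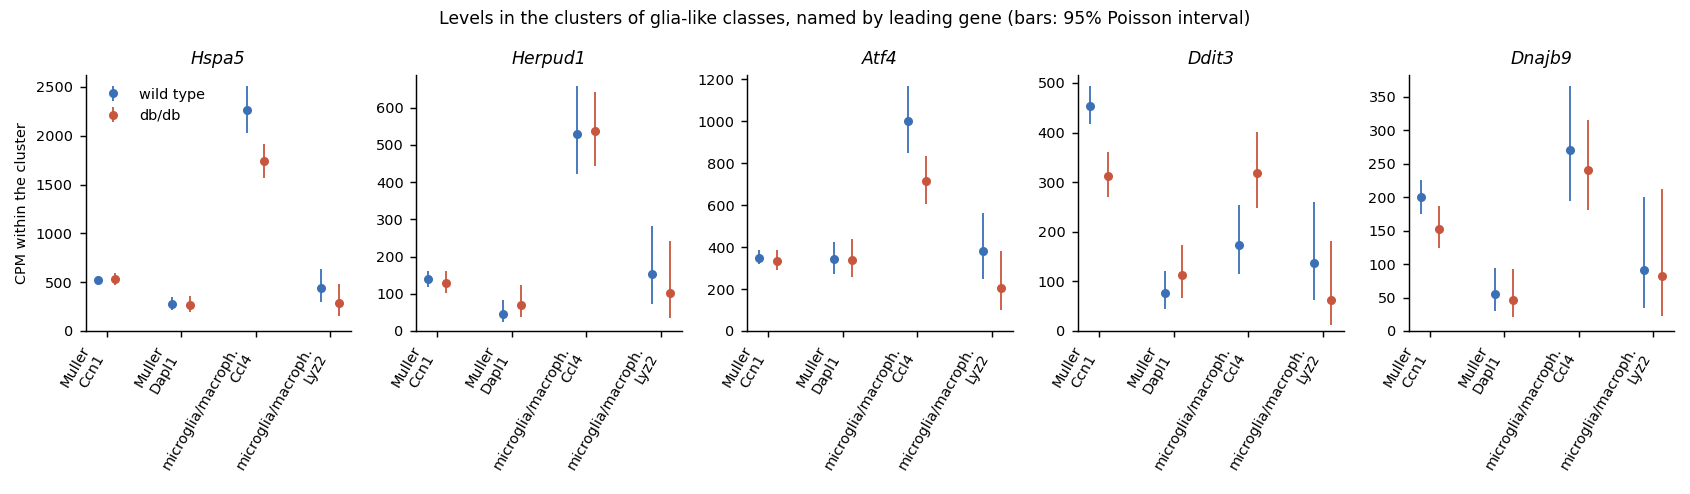
Level of 5 genes (vertical axis, CPM within the cluster, starting at 0) in 2 clusters of Muller glia-like cells and 2 of microglia or macrophage-like cells (horizontal axis, named by leading gene), wild-type library in blue and db/db library in red, bars for the 95% Poisson interval. Hspa5, Herpud1, Atf4 and Dnajb9 are highest in the Ccl4 cluster, and Ddit3 in the wild-type library is highest in the Ccn1 cluster.

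Other genes of the same pathways were described through 4 lists, each given by its measured genes past the same line of 0.32, with the share of all measured genes past it in parentheses. Of 14 ER chaperone and folding genes, 10 were lower and 4 higher in db/db rod-like cells, with 2 lower past the line (5.49% of all genes), 0 higher (7.79%) and a median log2 ratio of -0.13. Pdia6, a disulfide isomerase, was at 86.1 and 65.9 CPM with a log2 ratio of -0.39 (-0.48 to -0.29). The lectin chaperones Calr, at 290 and 231 CPM, and Canx, at 201 and 162 CPM, had log2 ratios of -0.33 (-0.38 to -0.28) and -0.31 (-0.37 to -0.25). In the other classes this list was split, with 2 lower and 1 higher past the line of 13 in cone-like (9.42% and 11.0%) and 1 and 1 of 13 in bipolar-like cells (11.7% and 10.7%). It had 0 and 0 of 10 in Muller glia-like (15.7% and 14.7%) and 1 and 0 of 6 in microglia or macrophage-like cells (27.4% and 19.7%). In bipolar-like cells Ero1l, an oxidase of the ER, had a log2 ratio of 0.53 (0.10 to 0.97) and Calr one of -0.22 (-0.40 to -0.05).

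Of 17 measured genes of XBP1 targets, ER-associated degradation and translocation, 0 passed the line in rod-like cells (5.49% of all genes lower, 7.79% higher), where the median was -0.01. Os9, a lectin of the degradation complex, had a log2 ratio of -0.26 (-0.37 to -0.15) there, Sec61b one of -0.19 (-0.28 to -0.10) and Ssr2 one of -0.15 (-0.24 to -0.05). Past the line, 2 of 15 were lower and 0 higher in cone-like (9.42% and 11.0%) and 1 and 1 of 16 in bipolar-like cells (11.7% and 10.7%). In Muller glia-like cells it was 0 and 4 of 14 (15.7% and 14.7%), and in microglia or macrophage-like cells 1 and 3 of 7 (27.4% and 19.7%), with the intervals of all these glial ratios including 0. Sec61b, a subunit of the translocation channel, was at 132 and 104 CPM in cone-like cells, at a log2 ratio of -0.34 (-0.62 to -0.07), and Ssr3, of the translocon-associated complex, was at -0.31 (-0.62 to -0.01). The ubiquitin ligase gene Syvn1 had 63 and 29 UMIs in bipolar-like cells, at a log2 ratio of -0.70 (-1.38 to -0.04).

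The list of ATF4 targets held genes that differed in both directions in rods and in glia. Of 22 measured in rod-like cells, 3 were lower and 2 higher past the line (5.49% and 7.79% of all genes), with a median of -0.05. Of the 22, 12 were below 0 and 10 above (42.4% of all genes were below 0). Pck2, mitochondrial phosphoenolpyruvate carboxykinase, had 72 and 127 UMIs there, at a log2 ratio of 0.66 (0.23 to 1.10), and Sars, seryl-tRNA synthetase, had a log2 ratio of -0.24 (-0.32 to -0.16). Ddit4, an inhibitor of mTORC1, had 7525 and 9378 UMIs and was at 0.16 (0.12 to 0.20). Ppp1r15a at 0.26 (0.11 to 0.42), Atf3 at 0.15 (0.05 to 0.25) and Slc3a2 at 0.13 (0.07 to 0.20) were also higher in rod-like cells, under the line. Lower there were Slc7a5 at -0.47 (-0.90 to -0.05), Mthfd2 at -0.30 (-0.51 to -0.09), Gars at -0.25 (-0.39 to -0.10) and Eprs at -0.18 (-0.25 to -0.11). The genes of both groups were named after their values were seen. In Muller glia-like cells 4 of 20 were lower and 3 higher past the line (15.7% and 14.7% of all genes). There Atf3, a stress-induced transcription factor, was at 820 and 423 CPM, at a log2 ratio of -0.96 (-1.13 to -0.78). Ppp1r15a, the phosphatase subunit that reverses eIF2alpha phosphorylation, was at 461 and 284 CPM with -0.70 (-0.93 to -0.48), and the cystine transporter gene Slc7a11 had 59 and 11 UMIs with -1.54 (-2.62 to -0.60). In the other direction, Psat1, of serine synthesis, had 102 and 99 UMIs with 0.84 (lower bound 0.43), and Cth, of cysteine synthesis, 30 and 29 UMIs with 0.83 (0.05 to 1.62), both named after their values were seen. In microglia or macrophage-like cells 4 of 6 were higher and 1 lower past the line (19.7% and 27.4% of all genes). Cebpb, a C/EBP transcription factor, had 12 and 46 UMIs, at a log2 ratio of 1.66 (0.72 to 2.71), Nupr1, a stress-induced chromatin protein, had 19 and 63 UMIs with 1.45 (0.69 to 2.27), and Atf3 was at 3970 and 5000 CPM with 0.33 (0.21 to 0.46). The lower gene was Slc3a2, an amino acid transporter subunit, with 86 and 65 UMIs and -0.69 (-1.17 to -0.20). In bipolar-like cells 4 of 14 were lower and 0 higher (11.7% and 10.7%), with Atf3 at -0.84 (-1.34 to -0.35) and Ppp1r15a at -0.56 (-1.13 to -0.01), while Vldlr, a lipoprotein receptor, was at 0.22 (0.03 to 0.41). In cone-like cells 0 of 13 passed the line in either direction (9.42% and 11.0%).

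Among 13 sensors and regulators, all measured in rod-like cells, 0 were lower and 1 was higher past the line (5.49% and 7.79% of all genes), with a median of 0.01. In cone-like cells 3 of 10 were lower and 2 higher (9.42% and 11.0%), and Mbtps2, a protease that activates ATF6, had 32 and 51 UMIs, at a log2 ratio of 0.83 (0.16 to 1.51). In bipolar-like cells 1 of 10 was lower and 1 higher (11.7% and 10.7%), the former being Eif2b5, a subunit of the eIF2 exchange factor, with 67 and 26 UMIs and -0.94 (-1.66 to -0.27). In Muller glia-like cells 3 of 8 were lower and 0 higher (15.7% and 14.7%), with intervals that included 0. None of the list reached 50 UMIs in microglia or macrophage-like cells.

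**Figure D5:**
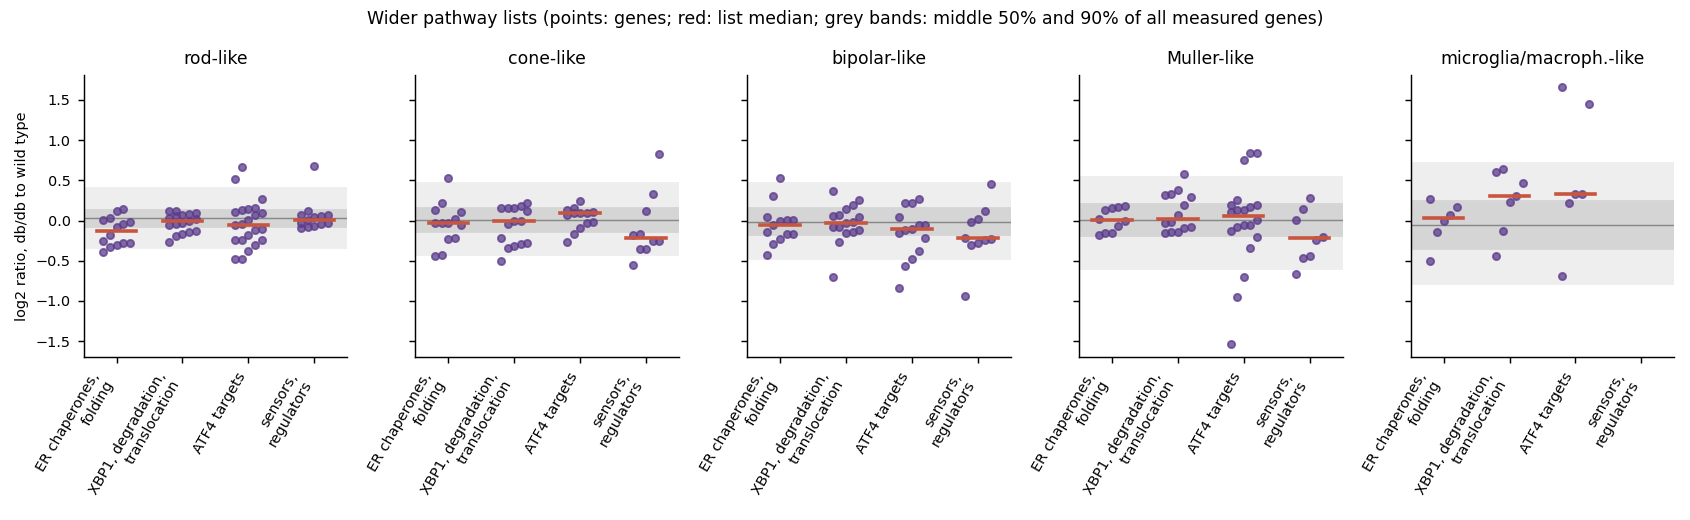
Log2 ratio of db/db to wild type (vertical axis) for the measured genes of the 4 lists (horizontal axis) in each class (panels), with points for genes, red lines for list medians and grey bands for the middle 50% and 90% of all measured genes. In rod-like cells the ER chaperones lie mostly below 0 (median -0.13), and in Muller glia-like cells the widest spread is that of the ATF4 targets.

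Likeness of pattern was described by Pearson's r of log2(CPM + 1) over the 10 combinations of 5 classes and 2 libraries, which share libraries and depth, so no p is given. The genes most like Hspa5 were Ctsz (r = 0.995), Pdcd6ip (0.985), P4hb (0.984) and Arpc3 (0.983). Of these P4hb is a disulfide isomerase of the ER, and among the members Herpud1 (0.928) and Xbp1 (0.913) were closest. Trib3 (-0.662) and Asns (-0.641) were the farthest. Hspa5 was at 1720 and 1480 CPM in microglia or macrophage-like cells and at most 481 CPM in the other classes. Its r values therefore rest largely on that 1 class. The genes most like Atf4 were Hnrnpf (0.987), Itprid2 (0.970), Ptp4a2 (0.962) and 8030456M14Rik (0.950). No other member exceeded 0.461 with Atf4, the value of Hsp90b1, and Ddit3 was at 0.0965.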

How the data were processed

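Retinal cells of 1 wild-type and 1 db/db library were counted by the authors with Cell Ranger 6.0.1 (per the file headers). The submitters' processing notes also name this tool, with the mm10 genome. The deposited values are raw UMI counts per gene and barcode. Annotation release, cell calling and strand use are not given in the sources used here. Per the labels, about 6000 cells were loaded and 3000 targeted per library, fewer than the barcodes deposited.

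Cells with at least 200 genes and at most 20% mitochondrial UMIs were kept. Scrublet in scanpy 1.11.5 marked 0 and 2 cells as doublets, too few for a working caller, so doublets stayed in, and an alternative left out the 8% with the highest scores (818 and 877 cells). Both libraries were clustered together in 2 rounds (the 2000 most variable genes, less any of the 10 genes and the pathway lists, 40 principal components, 15 neighbours, Leiden resolution 1.0). The second round took cells outside rod clusters. A class name required at least 3 of its markers at 2 times the level in other cells and no other class leading its 10 leading genes. Rods are most of the cells, so first-round clusters with no name were called rod by a further rule that is not reported here. Clusters named rod in the second round were set apart.

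UMIs were summed per class and library, scaled to CPM, and compared as log2 ratios of db/db to wild type with exact conditional binomial intervals; summed counts have exact Poisson intervals, and no ratio is printed where a library had 0 UMIs. The interval code was tested on simulated data. UMI intervals cover counting error only. All 10 members are named; from each list, up to 3 genes per class were named whose ratio interval excluded 0, by the bound nearest 0. The members and lists were chosen with earlier results of these data known. For the ATF4 list, 29 of 30 symbols were in the files. Positions come from GENCODE M21 (GRCm38), which matched 32158 of 32285 genes by identifier. Alternatives changed 1 choice at a time; those on single clusters or cells, and the subtraction scaled by 9 rod markers, were chosen after seeing the data.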

Additional observations from a re-analysis of the deposited data

Results flagged for a closer look

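Ddit3 had a log2 ratio of 0.74 in microglia or macrophage-like cells and of -0.54 in Muller glia-like cells, with both intervals away from 0 and both ratios past 0.32 on the log2 scale. The pair was picked out because the classes differ in direction under the same contrast. The difference between the classes was not tested, since each genotype has 1 library per class, and it rests on 36 and 73 UMIs in the former and 577 and 215 UMIs in the latter.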

How the results depend on the processing

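Over 640 single-gene recomputations, 583 stayed within the counting interval of the value reported and 53 lay outside it. Another 4 changed the sign of a ratio that was past the line and whose interval left out 0. Those 4 were Asns in rod-like cells of the tercile with fewest UMIs (0.26), Xbp1 in bipolar-like cells thinned to 1000 UMIs (-0.090), Hsp90b1 in Muller glia-like cells thinned likewise (0.047) and Ddit3 in the Lyz2 cluster of microglia or macrophage-like cells alone (-1.15). Asns and Sesn2 in bipolar-like cells were past the line with intervals that included 0. Each was above 0 in 1 of 14 alternatives, at 0.66 and 0.11. The cause of these changes of sign was not tested. Thinning also moved the median of the measured members in bipolar-like cells to -0.13, over 6 genes. The number of members past the line in rod-like cells was 2 as reported and 1 at a fold of 1.5. It was 4 of 9 measured in the tercile with fewest UMIs (2 lower and 2 higher in db/db) and 1 in the middle tercile. It was 3 in the tercile with most UMIs and in the middle tercile of mitochondrial share (1 of them higher in db/db in each). The share of all genes past the line in each tercile is not given, so these counts lack a background. In rod-like cells the ranges over 18 alternatives were -0.58 to -0.26 for Hsp90b1, 0.20 to 0.45 for Dnajb9 and 0.06 to 0.36 for Atf4, on 1 side of 0 throughout. For 5 other ratios past the line the lowest and highest values were -1.16 and -0.12 for Dnajb9 in bipolar-like, -0.76 and -0.14 for Dnajb9 in Muller glia-like, -0.65 and -0.35 for Ddit3 in Muller glia-like, -0.53 and -0.21 for Herpud1 in bipolar-like and -0.89 and -0.02 for Atf4 in microglia or macrophage-like cells. The -1.16 came from subtracting the library-wide profile, the -0.12 and -0.21 from leaving out the cluster led by Car8 and the -0.02 from equal weight per cell. No paired analysis was possible because each genotype has 1 library. Depth limits Asns, Sesn2 and Trib3 outside rod-like cells, and all genes in the 67 and 61 microglia or macrophage-like cells.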

Other observations

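Classes with fewer than 50 cells in a library were not compared, and their levels are given as values. Amacrine-like cells (114 wild-type and 29 db/db cells), inhibitory interneurons, had Hspa5 at 303 and 374 CPM, Hsp90b1 at 516 and 631 CPM and Atf4 at 145 and 174 CPM, with intervals that overlapped between libraries. Their Atf4 level was the lowest of the neuronal classes in either library. Retinal pigment epithelium-like cells (45 and 16 cells) had 24 Atf4 UMIs (wild type) and 31 (db/db), or 317 and 822 CPM, and 63 and 18 Hsp90b1 UMIs, or 832 and 477 CPM. Erythroid-like cells (25 and 42 cells) were lowest or at 0 for every member, with 3 and 13 Hspa5 UMIs and 7 and 16 Atf4 UMIs.

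Cells outside the named classes come from the same 2 libraries and are no independent samples. In the cluster set apart as mixed with rod (416 and 269 cells), the log2 ratio was -0.38 (-0.53 to -0.22) for Hsp90b1, 0.73 (0.29 to 1.16) for Dnajb9 and 0.19 (0.07 to 0.32) for Atf4. In unnamed clusters (355 and 273 cells), it was -0.35 (-0.46 to -0.24) for Hsp90b1, 0.22 (-0.14 to 0.59) for Dnajb9 and 0.14 (0.03 to 0.26) for Atf4.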
